A study of Mus musculus with 37 samples.

Results

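Mesothelial cells form the thin sheet that covers the lung surface, and 8 genes that mark them were followed through a study of mouse lungs after radiation. They were chosen by name, with earlier results of these data known: Lrrn4, Msln, Upk3b, Upk1b, Wt1, Gpm6a, Muc16 and Aldh1a2. Of these 8, 7 had a row among the 24421 gene symbols of the count table, and all 7 passed the filter on low counts. Muc16, a large membrane mucin, was not analysed here. Levels are given as CPM, the count of a gene per 1000000 counts of its library.

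The mesothelium lines the pleural cavity and secretes a lubricating fluid that lets the lung slide against the chest wall. In development it arises from mesoderm, and its cells carry features of both an epithelium and a connective tissue. Wt1, a zinc finger transcription factor, is needed for the normal development of mesothelia, and Aldh1a2 makes retinoic acid, the active form of vitamin A. Msln encodes mesothelin, a surface glycoprotein that binds the mucin of Muc16 in human cells. Upk3b and Upk1b belong to the uroplakins, membrane proteins best known from the lining of the bladder. Gpm6a and Lrrn4 encode membrane proteins that were first studied in nerve cells.

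All 37 mice were C57BL/6, and each gave 1 lung RNA library. Gamma mice (5) received 0.75 Gy of gamma rays from a caesium source, and GCR mice (7) 0.75 Gy of a mixed beam of 5 ion species, a simplified stand-in for galactic cosmic rays. Silicon mice (7) received 0.75 Gy of silicon ions at 300 MeV per nucleon, and silicon + NR mice (6) the same ions with nicotinamide riboside (NR) at 12 mM in their drinking water from before exposure on; NR belongs to the vitamin B3 group. Mock + NR mice (5) drank NR and received 0 Gy, and mock mice (7) received 0 Gy without NR. By label 2 of 5 gamma, 4 of 7 GCR, 4 of 7 silicon, 2 of 6 silicon + NR, 1 of 5 mock + NR and 2 of 7 mock mice were female. Neither the age of the mice nor the time from exposure to dissection is stated in the sources used here. In RNA from whole tissue, fewer cells of a type and less RNA per cell cannot be told apart.

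The promoter windows of Lrrn4, Upk3b and Aldh1a2 are shown because Lrrn4 and Upk3b were the pair of genes that varied most closely together, and Aldh1a2 had the smallest p of the 7 genes in gamma against mock. Gpm6a, which has 2 windows, is described in words. Each runs from 250 bases before to 50 bases after a gene start of RefSeq (GRCm38.p6), 5' to 3' on the strand of the gene. Capitals mark the motifs found. The Lrrn4 window is chr2:132880813-132881112 (minus strand), that of Upk3b chr5:136038246-136038545 (plus strand) and that of Aldh1a2 chr9:71215539-71215838 (plus strand).
Lrrn4: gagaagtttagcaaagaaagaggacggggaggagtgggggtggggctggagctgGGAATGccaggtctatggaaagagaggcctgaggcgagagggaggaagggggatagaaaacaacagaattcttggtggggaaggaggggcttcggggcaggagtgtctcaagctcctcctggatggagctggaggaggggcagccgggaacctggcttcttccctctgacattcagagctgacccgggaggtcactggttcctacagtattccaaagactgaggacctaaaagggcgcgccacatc
Upk3b: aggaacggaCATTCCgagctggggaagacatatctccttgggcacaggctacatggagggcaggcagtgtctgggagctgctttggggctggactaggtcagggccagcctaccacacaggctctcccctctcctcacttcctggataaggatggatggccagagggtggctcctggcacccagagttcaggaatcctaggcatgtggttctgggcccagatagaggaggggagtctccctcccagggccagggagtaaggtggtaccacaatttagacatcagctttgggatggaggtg
Aldh1a2: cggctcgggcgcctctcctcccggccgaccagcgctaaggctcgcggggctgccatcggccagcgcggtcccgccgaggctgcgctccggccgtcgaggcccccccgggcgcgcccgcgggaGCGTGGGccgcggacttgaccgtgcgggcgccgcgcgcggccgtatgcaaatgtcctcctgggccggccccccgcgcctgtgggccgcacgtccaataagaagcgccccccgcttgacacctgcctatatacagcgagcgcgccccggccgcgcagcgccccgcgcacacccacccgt

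Windows were found for 5 of the 8 genes. Both strands were searched for the core that TEAD factors bind (GGAATG), for the core shared by EGR factors and WT1 (GCGTGGG), for the GC box (GGGCGG) and for the TATA box (TATAAA). The letters GGAATG stood in Lrrn4 from -196 to -191, and in Upk3b on the opposite strand from -241 to -236. It also stood in 1 of 2 windows of Gpm6a, from -125 to -120. This motif was in 14.7% of the 32851 windows of the RefSeq table. The letters GCGTGGG stood in Aldh1a2 from -128 to -122, against 5.04% of all windows. The GC box was found in the Gpm6a window that held GGAATG, against 35.7% of all windows. The TATA box was in the other Gpm6a window on the opposite strand, against 13.6%. The first of these 2 windows, chr8:54779184-54779483, lies far before the Gpm6a start given below (54954843). The second, chr8:54954478-54954777, lies just before that start. A match of letters is a description and not a site of binding, and none of these 4 motifs was in the Muc16 window.

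In mm10, the genes lie on 6 chromosomes. Lrrn4 (ENSMUSG00000043110.2) is at chromosome 2, 132868305 to 132880891, and Wt1 (ENSMUSG00000016458.14) at chromosome 2, 105126529 to 105173616. Msln (ENSMUSG00000063011.7) is at chromosome 17, 25748613 to 25754378, Upk3b (ENSMUSG00000042985.7) at chromosome 5, 136038496 to 136046487, and Upk1b (ENSMUSG00000049436.5) at chromosome 16, 38773184 to 38800328. Gpm6a (ENSMUSG00000031517.8) is at chromosome 8, 54954843 to 55060871, and Aldh1a2 (ENSMUSG00000013584.5) at chromosome 9, 71215789 to 71296243. All are protein coding. The antisense gene Wt1os does not overlap Wt1 in this annotation, and the medians per library were 63 counts for Wt1 and 2 for Wt1os.

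Total counts ran from 9485197 to 66381526 with a median of 28476462. Genes of other tissues marked some libraries. Acta1 of skeletal muscle exceeded 1000 CPM in 13 libraries, none of them gamma or GCR, and Rn45s, the precursor of ribosomal RNA, exceeded 100000 CPM in 3 GCR and 1 mock library. Nppa, an atrial hormone gene, exceeded 10000 CPM in gamma replicates 3 and 4 only, and Ccl19, a chemokine of lymphoid stroma, exceeded 100 CPM in 2 silicon and 1 mock + NR library. Gamma replicate 5 went against its label of female: Ddx3y, on the Y chromosome, stood at 87.6 CPM and Xist at 3.73 CPM, while the other gamma library labelled female, replicate 4, had 0.125 CPM of Ddx3y and 217 CPM of Xist. Surfactant and other alveolar type 2 genes, whose 6 members summed to between 1850 and 44300 CPM, were present in every library.

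None of the 7 genes was at 0 in any library, and the lowest count of all was 5 reads, for Wt1. Per kilobase of exon, in mock lungs, Msln averaged 34.99 ± 25.4 CPM per kb (SD, n = 7), Gpm6a 19.2 ± 10, Upk1b 15.6 ± 7.60, Upk3b 9.46 ± 6.24, Aldh1a2 8.23 ± 2.05, Lrrn4 2.79 ± 1.37 and Wt1 0.420 ± 0.225. Msln had the highest level per kb among the 7 in 25 of 37 libraries, Gpm6a in 11 and Upk3b in 1. On the CPM scale the gamma mean was the highest of the 6 group means for every gene, and the means of both NR groups were the lowest. The gap from the gamma mean to the next group was smaller than the larger SD of that pair for all 7 genes. Among the 5 neighbouring pairs of groups for each gene, the gap exceeded the larger SD only at the step into the NR groups, in Lrrn4, Upk3b, Upk1b, Wt1 and Aldh1a2, and no neighbouring pair had ranges that stood apart.

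**Figure D1:**
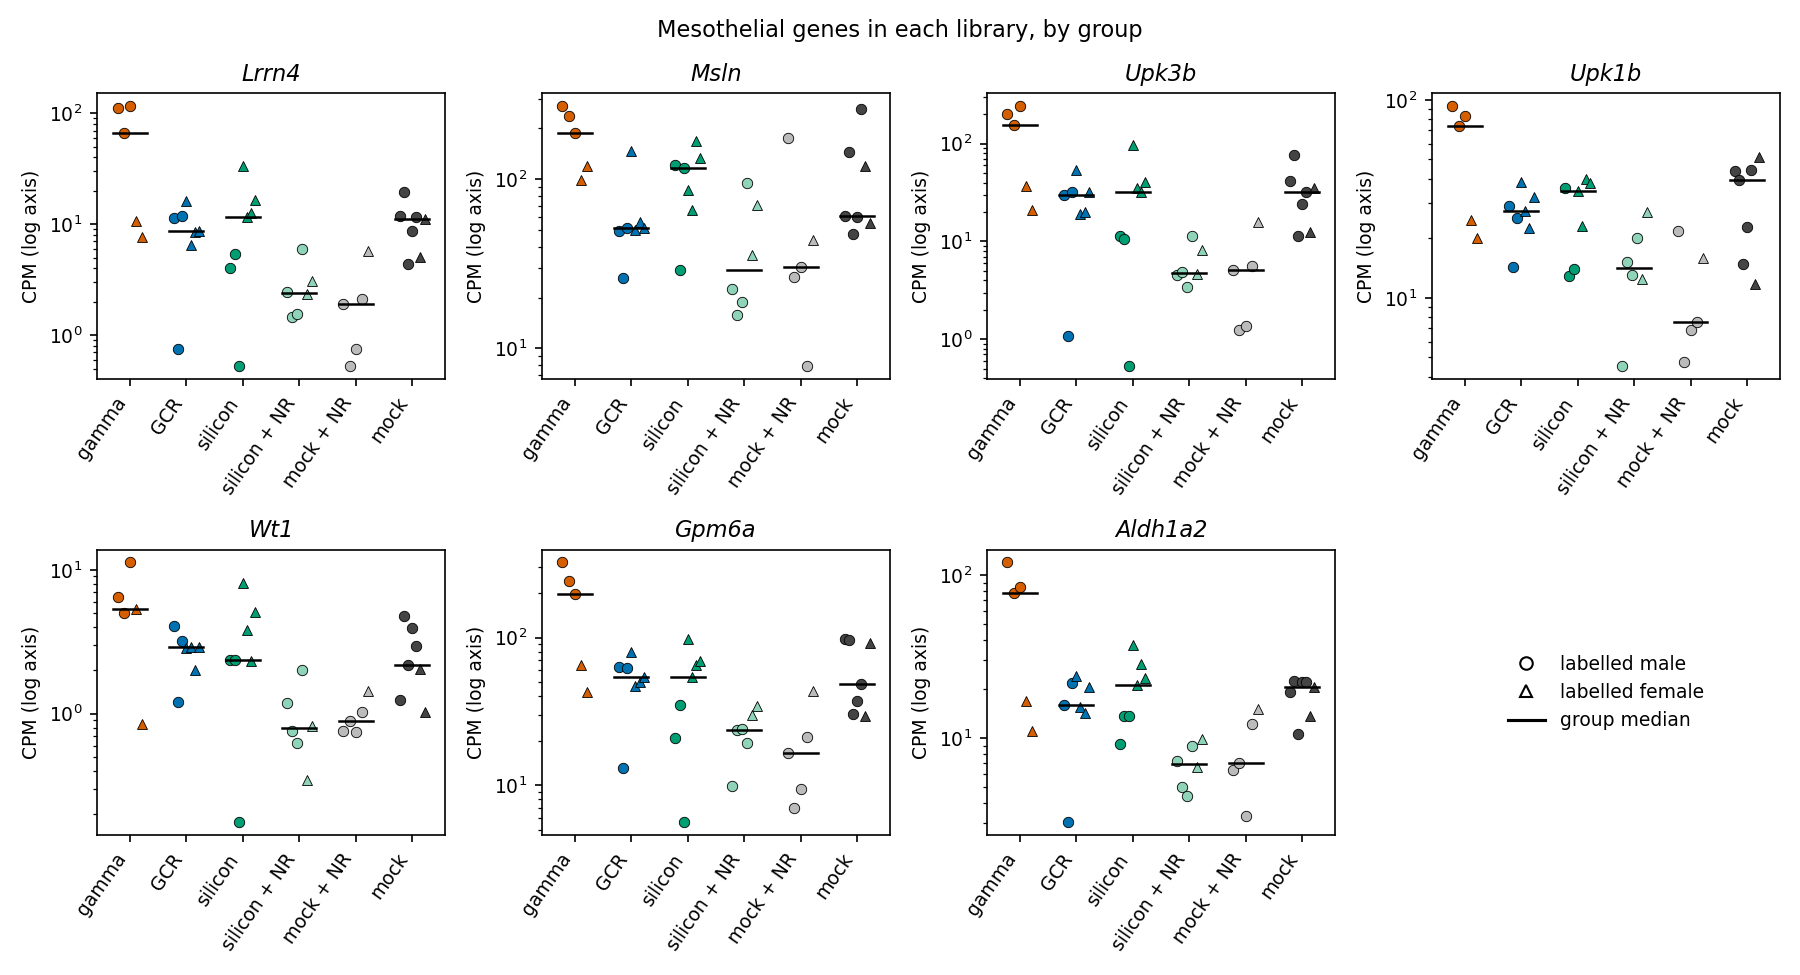
CPM of each gene (log axis) in each of 37 libraries by group, with circles for mice labelled male, triangles for mice labelled female and bars for group medians. Gamma replicates 1 to 3, all labelled male, stand highest for Lrrn4 at 112, 66.4 and 115 CPM, and the NR groups stand lowest.

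Gamma against mock asks what low-energy-transfer photons did to these genes. Gamma lungs had higher levels on average, set by 3 of the 5 libraries, and no gene passed the test. Lrrn4 stood at 112, 66.4, 115, 10.6 and 7.70 CPM in gamma replicates 1 to 5, against a lowest of 4.40, a median of 11.3 and a highest of 19.7 CPM in mock. Gamma replicates 1 to 3 lay above every mock library, and replicates 4 and 5 lay within the mock range. Upk3b stood at 202, 156, 240, 36.7 and 20.9 CPM in gamma lungs, against 11.4, 32.2 and 76.1 CPM as lowest, median and highest in mock. Gpm6a stood at 323, 241, 198, 64.8 and 43.0 CPM in gamma lungs, against 29.5, 48.4 and 97.4 CPM in mock. The same 3 gamma libraries exceeded all mock libraries for both genes.

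Aldh1a2 stood at 120, 78.2, 84.7, 16.9 and 11.1 CPM in gamma lungs, against a lowest of 10.6, a median of 20.6 and a highest of 22.3 CPM in mock. Upk1b stood at 92.5, 73.3, 83.0, 24.6 and 20.1 CPM in gamma lungs, against 11.8, 39.1 and 51.6 CPM in mock. Both genes repeated the split of 3 libraries against 2. Wt1, the lowest of the genes, stood at 6.52, 4.98, 11.2, 5.32 and 0.847 CPM in gamma lungs, against 1.02, 2.17 and 4.81 CPM in mock, so that gamma replicate 4 was also above every mock library and replicate 5 below every one. Msln stood at 270, 236, 187, 99.3 and 120 CPM in gamma lungs, against 47.6, 60.6 and 262 CPM in mock, and 1 gamma library exceeded the highest mock library.

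By edgeR, the log2 fold change of gamma over mock was 2.58 for Lrrn4 (SE 0.67, adjusted p = 0.231), 1.98 for Upk3b (SE 0.71, adjusted p = 0.308) and 1.67 for Aldh1a2 (SE 0.41, adjusted p = 0.192). It was 1.51 for Gpm6a (SE 0.47), 1.09 for Wt1 (SE 0.54), 0.83 for Upk1b (SE 0.39) and 0.75 for Msln (SE 0.53), with adjusted p from 0.246 to 0.68. Of the 7 genes 0 were called, against 0.0295% of the 16977 genes tested (5 genes), and 5 of 7 had an unadjusted p under 0.05, against 10% of all genes. The median log2 fold change of the 7 was 1.51, against -0.01 over all genes. DESeq2 called Lrrn4 and Aldh1a2 (1.36% of all genes called), and limma voom with sample weights called Lrrn4, Upk3b, Gpm6a and Aldh1a2 (1.40%). Without gamma replicate 5, whose sex genes go against its label, Aldh1a2 was called by edgeR (1.96, adjusted p = 0.0315, with 0.0701% of all genes called) and Lrrn4 stood at 2.89 (adjusted p = 0.0962).

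The 3 high gamma libraries were the 3 labelled male, and the values within each labelled sex are given as a description. This split was taken up after the values were seen, so it makes the male difference larger by its choice and tests nothing. Among males, Aldh1a2 averaged 94.2 ± 22.3 CPM in gamma (SD, n = 3) and 19.2 ± 4.97 CPM in mock (SD, n = 5), a log2 fold change of 2.15, and Lrrn4 averaged 98.0 ± 27.4 CPM in gamma and 11.3 ± 5.57 CPM in mock, a change of 3.03. Among females, the 7 changes ran from -0.25 to 1.13 with 2 libraries in each group. Gamma replicate 5, counted here as female, carries Y-linked RNA and had 11.1 CPM of Aldh1a2 and 7.70 CPM of Lrrn4, far below the 3 labelled males. The fits by sex called 1 gene among males (Aldh1a2, 0.00589% of all genes), and 0 of the 7 among females and for the difference between the sexes (0.0236% of all genes for each), and nothing is read from these calls.

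Other tissue moved in part with the same libraries. Heart genes were high in gamma replicates 3 and 4, with 17520 and 24510 CPM of Nppa, and low in replicates 1 and 2, with 6.199 and 15.9 CPM. Gamma replicate 4 lay within the mock range for every mesothelial gene but Wt1, and replicates 1 and 2 lay above it for every one but Msln in replicate 2. Without the 2 heart-rich libraries Lrrn4 stood at 2.57, Aldh1a2 at 1.83 and Wt1 at 0.51 on the log2 scale, against 2.58, 1.67 and 1.09 with them. Of the libraries left out, replicate 3 was high in Lrrn4 (115 CPM) and replicate 4 low (10.6 CPM). The part of heart tissue was not tested. Without the muscle-rich libraries, 4 of them mock, the changes were 0.84 for Gpm6a, 1.33 for Upk3b, 0.40 for Upk1b, 2.04 for Lrrn4, 1.55 for Aldh1a2, 1.12 for Msln and 1.41 for Wt1. Adiponectin (Adipoq), a fat cell gene, was at 955 CPM in gamma replicate 3 and at 3.10 and 5.47 CPM in replicates 1 and 2. The 6 alveolar type 2 genes summed to between 15500 and 30400 CPM in gamma males and to 4190 and 8740 CPM in gamma females. Endothelial genes summed to 1170 to 1810 CPM in those males and to 685 and 706 CPM in those females. Alveolar type 1 genes summed to 2000 to 5300 and to 1120 and 1500 CPM, and macrophage genes to 152 to 222 and to 84.9 and 146 CPM. Ciliated and squamous sums were lower in gamma males. Mock sums were 8550 to 44300 CPM for alveolar type 2, 740 to 2950 for endothelial and 1280 to 4770 for alveolar type 1 genes. The part of these cells in the split was not tested.

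GCR against mock and silicon against mock ask what the ions did. No mesothelial gene passed the test after either exposure. Lrrn4 ran from 0.746 through a median of 8.69 to 16.1 CPM in GCR lungs and from 0.528 through 11.6 to 33.4 CPM in silicon lungs, against 4.40 to 19.7 CPM in mock. The ranges overlapped in all 3 groups. In GCR lungs the 7 log2 fold changes over mock ran from -0.68 (Msln, 95% interval -1.67 to 0.31) to 0.29 (Wt1), and 0 were called by edgeR, although 16.6% of all genes were. For Lrrn4 the change was -0.16 with an interval from -1.39 to 1.07, and for Aldh1a2 -0.12 with an interval from -0.89 to 0.64. In silicon lungs they ran from -0.45 (Gpm6a) to 0.59 (Wt1), with 0 called, as for all genes (0%, by edgeR, with 12.9% of all genes and 0 of the 7 at an unadjusted p under 0.05).

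Within silicon lungs the labelled sexes stood apart for some of the genes, a split that was examined after the values were seen. Lrrn4 was at 11.6 to 33.4 CPM in 4 females and 0.528 to 5.43 CPM in 3 males, and Upk3b at 32.4 to 97.3 CPM in females and 0.528 to 11.3 CPM in males. The female and male ranges did not overlap for either gene, nor for Gpm6a and Aldh1a2. They overlapped for Msln (65.8 to 168.5 CPM in females and 29.17 to 120.9 CPM in males), Upk1b and Wt1. The share of all genes whose ranges stand apart between these mice was not computed. The muscle gene Acta1 stood at 9179 to 36930 CPM in the 4 females and at 22.2, 19540 and 403 CPM in males, so that 1 male lay inside the female range. The squamous and basal keratin gene Krt5 stood at 234.6 to 560.4 CPM in females and at 42.6, 334.4 and 15.9 CPM in males, and the part of these tissues in the split was not tested. Against mock mice of the same sex, Lrrn4 stood at 1.36 in females (SE 0.79) and at -1.70 in males (SE 0.68), with 0 of the 7 genes called in females (0% of all genes) and 0 in males (0.0118%). The difference was 3.06 for Lrrn4 (SE 1.05) and 3.55 for Upk3b (SE 1.23), with 0 of the 7 genes called for it by edgeR (adjusted p = 0.959 for both, 0% of all genes). Over all groups the female against male changes ran from -0.24 to 0.46 with 0 called (0.0589%).

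Set against gamma, the same ion groups were lower. GCR and gamma differed in Lrrn4 by -2.74 (SE 0.71, adjusted p = 0.0339 by edgeR), with a GCR mean of 9.13 ± 4.80 CPM (SD, n = 7) and a gamma mean of 62.5 ± 52.4 CPM (SD, n = 5). Aldh1a2 was lower by 1.79 on the log2 scale, at 16.5 ± 6.94 CPM in GCR and 62.1 ± 46.7 CPM in gamma (adjusted p = 0.0327 by edgeR). Gpm6a was at 52.6 ± 20.5 CPM in GCR and 174 ± 119 CPM in gamma, a change of -1.71 (adjusted p = 0.0409 by edgeR). These 3 of 7 genes were called lower than in gamma, against 5.70% of all genes called in either direction and 3.04% called lower. Upk3b, at -2.38, had an adjusted p of 0.0518 by edgeR, Msln -1.43 (0.0925), Upk1b -0.93 (0.14) and Wt1 -0.80 (0.373). For Msln, GCR replicate 4 (146.9 CPM) lay inside the gamma range and the 6 other GCR libraries lay below every gamma library, the lowest of which was at 99.3 CPM. For the 6 other genes most GCR libraries lay inside the gamma range.

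The GCR calls rested on single libraries and on the groups in the fit. In a fit of only the gamma and GCR libraries 0 of the 7 were called, as for all genes (0%), with Lrrn4 at -1.92 (adjusted p = 0.281 by edgeR), Gpm6a at -1.18 (0.281) and Aldh1a2 at -1.28 (0.294). None of the 7 was called without GCR replicate 1, 2, 5 or 6, where at most 0.00590% of all genes were, without gamma replicate 3 (0.0293%) or 4 (0.0234%), or without gamma replicate 1, where 3.73% of all genes were called. Without gamma replicate 2, 2 of the 7 were called (5.58% of all genes), and without GCR replicate 3 it was 3 (7.51%). Without gamma replicate 5 or GCR replicate 7, 4 were called (12.6% and 11.8%), and 5 without GCR replicate 4 (15.4%). In the fit of all libraries, heart genes were lower in GCR than gamma in 10 of 10 (median -3.10, Nppa -6.02). Of them 5 were called, against 3.04% of all genes called lower. Fat cell genes were lower in 10 of 10 with 0 called (median -2.69), and 1 of 8 fibroblast genes, Dcn, was called (-1.54, adjusted p = 0.0327 by edgeR). None of the 7 was called without the 3 GCR and 1 mock libraries rich in Rn45s (0% of all genes), without the 2 heart-rich gamma libraries (0.0232%), or without the muscle-rich libraries (0%). Without the heart-rich libraries the differences were -2.80 for Lrrn4, -1.98 for Gpm6a and -2.01 for Aldh1a2, against -2.74, -1.71 and -1.79 with them. They were -2.38, -1.45 and -1.55 without the libraries rich in Rn45s, and -2.29, -1.38 and -1.60 without the muscle-rich ones. None of the muscle-rich libraries was gamma or GCR, so leaving them out changed only the rest of the shared fit. Skeletal muscle genes summed to 27.8 to 160 CPM in gamma and 43.8 to 125 CPM in GCR lungs. The part of heart, fat, muscle and fibroblast tissue and of Rn45s was not tested. Silicon lungs had all 7 genes lower than gamma lungs, from -0.50 for Wt1 to -2.46 for Lrrn4, with 0 called by edgeR (0.247% of all genes) and 5 of 7 at an unadjusted p under 0.05, against 19.6% of all genes. Without gamma replicate 5, edgeR called Lrrn4 (-2.92), Gpm6a (-2.33) and Aldh1a2 (-1.91), with 1.04% of all genes called. These comparisons share the gamma libraries.

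**Figure D2:**
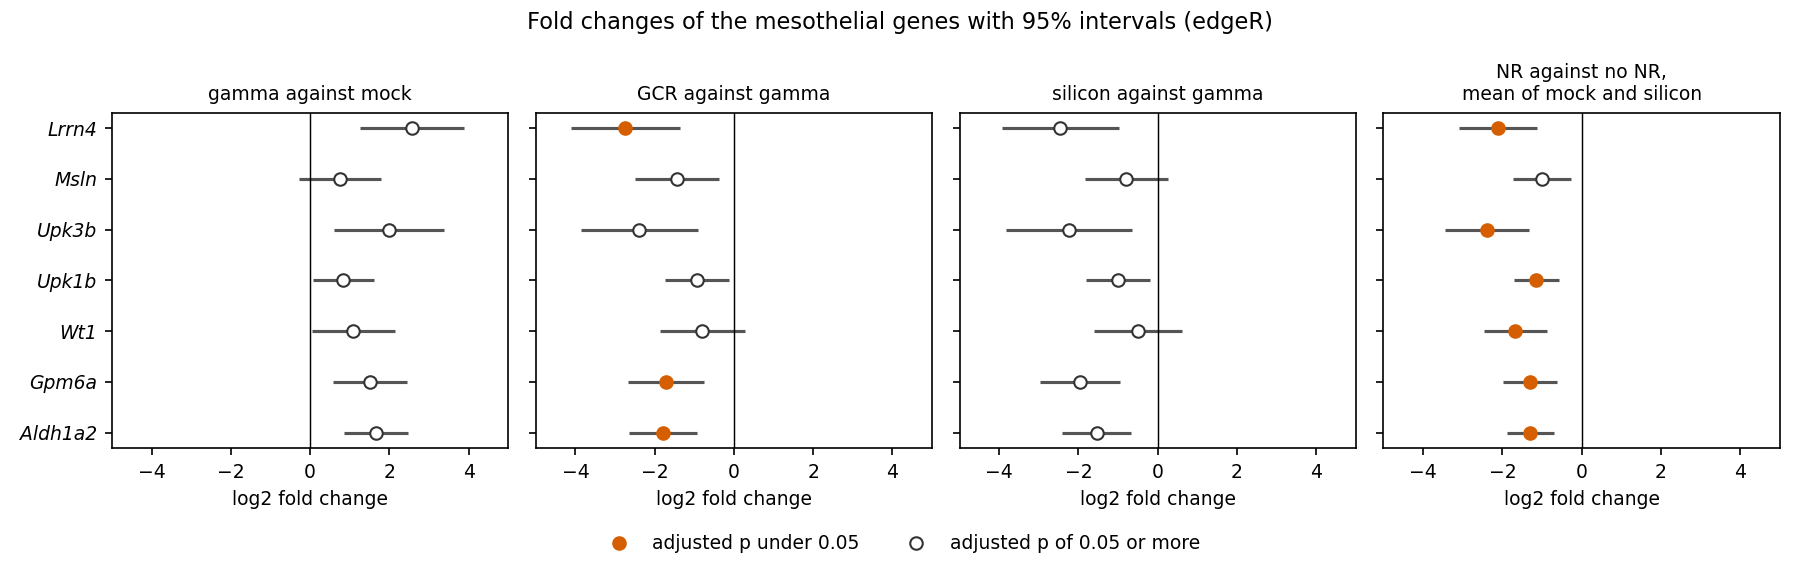
Log2 fold change of each gene by edgeR (points) with an approximate 95% interval (lines) in 4 comparisons, filled where the adjusted p was under 0.05. All 7 points lie above 0 for gamma against mock with 0 filled. For NR against no NR, a comparison added after the values were seen, 6 of 7 are filled below 0.

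NR drinking asks what a precursor of NAD did with and without the ions. All 7 fold changes were below 0 with NR in mock and in silicon lungs, and none passed the test in either comparison alone. Upk3b stood at 5.09, 1.24, 1.35, 5.67 and 15.8 CPM in mock + NR lungs, against a lowest of 11.4, a median of 32.2 and a highest of 76.1 CPM in mock. Of the 5 mock + NR libraries 4 lay below every mock library. In silicon + NR lungs Upk3b ran from 3.45 through a median of 4.78 to 11.4 CPM, against 0.528 through 32.4 to 97.3 CPM in silicon. All silicon + NR libraries lay inside the silicon range, at its lower end.

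Aldh1a2 stood at 6.37, 7.08, 3.31, 12.1 and 15.2 CPM in mock + NR lungs, against 10.6 to 22.3 CPM in mock, with 3 of 5 libraries below every mock library. It ran from 4.42 through a median of 6.94 to 9.82 CPM in silicon + NR lungs, against 9.13 through 21.2 to 37.1 CPM in silicon. Of the 6 silicon + NR libraries 5 lay below every silicon library. Wt1 averaged 0.975 ± 0.285 CPM in mock + NR and 2.60 ± 1.39 CPM in mock (SD, n = 5 and 7), and 0.958 ± 0.586 CPM in silicon + NR and 3.47 ± 2.55 CPM in silicon (SD, n = 6 and 7). Msln varied most, at 176, 26.4, 30.5, 7.84 and 44.1 CPM in mock + NR lungs, against 47.6 to 262 CPM in mock.

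By itself, neither NR comparison had a called gene by edgeR (0% of all genes in both). Mock + NR over mock ran from -0.79 for Msln to -2.63 for Upk3b (SE 0.80, adjusted p = 0.109 by edgeR), with 6 of 7 genes at an unadjusted p under 0.05, against 16.9% of all genes. Silicon + NR over silicon ran from -0.87 for Upk1b to -2.16 for Upk3b (adjusted p = 0.218 by edgeR), again with 6 of 7, against 12.8%. DESeq2 called 4 of 7 for mock + NR (3.55% of all genes) and 2 of 7 for silicon + NR (1.96%). The silicon response with NR minus that without ran from -0.64 to 0.71 with 0 called (0%), and silicon + NR over mock + NR from -0.47 to 0.45 with 0 called (0%).

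A comparison averaged over mock and silicon was added after the values were seen, so its calls are a description and not a separate test. In it 6 of 7 genes were called lower with NR by edgeR, against 2.73% of all genes called in either direction and 0.200% called lower. Upk3b stood at -2.39 (SE 0.54), Lrrn4 at -2.10 (SE 0.50), Wt1 at -1.67 (SE 0.41) and Aldh1a2 at -1.29 (SE 0.30), each with an adjusted p of 0.0395 by edgeR. Gpm6a stood at -1.30 (adjusted p = 0.0425) and Upk1b at -1.14 (adjusted p = 0.0413), while Msln, at -1.001, had an adjusted p of 0.131. In this comparison 429 of the 463 genes called in all were higher. The adjusted p lay close to 0.05, and in 14 of 25 fits that each left out 1 library no gene at all was called: silicon replicates 5, 6 and 7, silicon + NR replicates 2, 3 and 5, mock replicates 1, 3, 4, 5 and 7, and mock + NR replicates 1, 3 and 5. Without the 13 muscle-rich libraries 0 were called (0% of all genes), and the NR changes within silicon were 0.20 for Lrrn4, 0.03 for Upk3b and 1.24 for Gpm6a, while those within mock were -3.18, -3.65 and -2.59. This removes 5 of the 7 silicon libraries and leaves replicates 1 and 3, and replicate 3 had 0.528 CPM of both Lrrn4 and Upk3b. Without the 3 lymphoid-rich libraries 0 were called (0% of all genes), while the changes were as large as with them for Lrrn4 (-2.28), Upk3b (-2.59) and Wt1 (-1.88). Without the 4 libraries rich in Rn45s 3 were called (0.603% of all genes), with Lrrn4 at -2.10 and Upk3b at -2.41.

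Lists of other cells were set beside this comparison. All 6 ciliated cell genes were higher with NR (median 0.86) and 1 was called, against 2.73% of all genes called in either direction. This was Rsph1, at 0.86 with an adjusted p of 0.0474 by edgeR. The 4 club cell genes had a median of 0.75 with 0 called. The ciliated genes summed to 1500 to 2300 CPM in silicon + NR and 1470 to 2290 CPM in mock + NR, against 707 to 2100 CPM in silicon and 675 to 1560 CPM in mock. The medians were -0.65 for 8 endothelial, -0.47 for 6 alveolar type 1, -0.25 for 6 alveolar type 2, -0.50 for 8 fibroblast and -0.71 for 6 macrophage genes, each with 0 called, against -1.30 for the mesothelial genes and -0.07 over all genes. Fat cell genes had a median of -1.59 (10 of 10 lower) and lymphoid genes one of -1.07 (9 of 9 lower), both with 0 called, so the fat cell median lay below the mesothelial one. Their part in the mesothelial difference was not tested.

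The genes varied together from library to library, Msln least. Among the 21 pairs, Pearson's r of log2 CPM over 37 libraries ran from 0.451 to 0.983 and Spearman's rho from 0.455 to 0.978. The permutation p, adjusted over the pairs, was at most 0.00548. The permutation shuffled all 37 libraries across groups, so differences between groups enter this p. No p was computed with the group means removed. Lrrn4 and Upk3b were the closest pair (r = 0.983, and 0.974 after the group means were removed). The CPM of Lrrn4 was between 0.258 and 1.00 times that of Upk3b in every library. Pairs with Msln had r from 0.451 to 0.707, and from 0.116 to 0.526 after the group means were removed. The 15 other pairs had r from 0.618 to 0.983, and from 0.348 to 0.974. Without the 2 libraries farthest from the median, gamma replicates 1 and 3, r ran from 0.407 to 0.984 over all pairs, and outside the gamma group, whose libraries form 2 sets, from 0.293 to 0.985.

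Msln over Upk3b, as a ratio of CPM, had a median of 1.51 in gamma, 2.61 in GCR, 3.26 in silicon, 6.54 in silicon + NR, 21.4 in mock + NR and 2.46 in mock. The highest ratio was 221, in silicon replicate 3, where Upk3b stood at 0.528 and Msln at 116 CPM. In that library Wt1 was at 0.176, Lrrn4 at 0.528 and Gpm6a at 5.60 CPM, each the lowest or next to lowest of the 37 libraries. Upk1b at 13.9 CPM and Aldh1a2 at 13.7 CPM were not, and Msln was the 13th highest. It is 1 of the lymphoid-rich libraries.

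**Figure D3:**
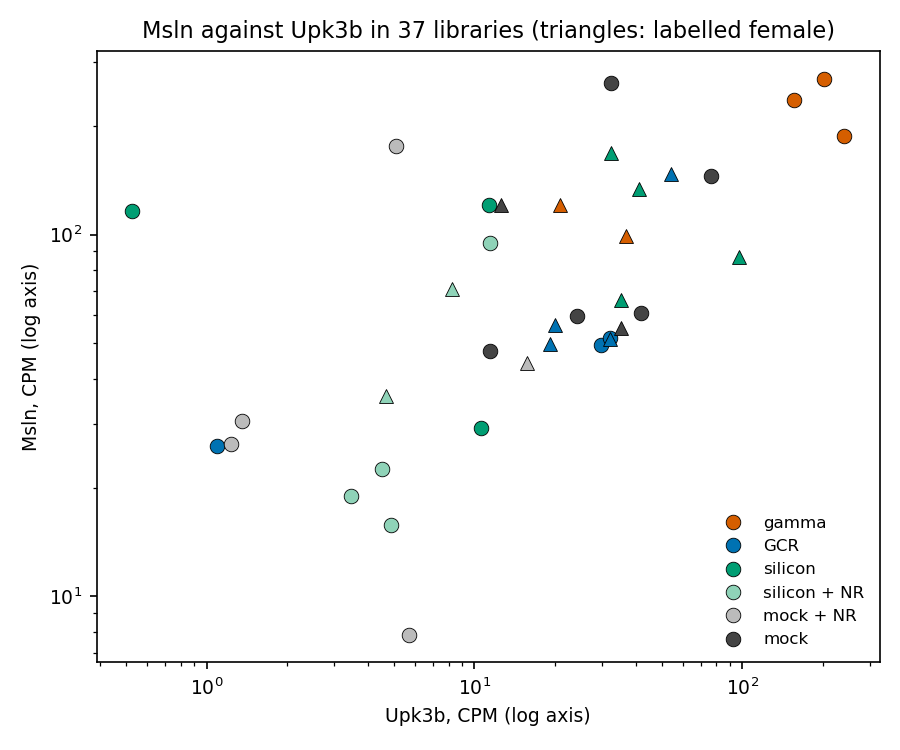
CPM of Msln against CPM of Upk3b (both log axes) in 37 libraries, coloured by group, with triangles for mice labelled female. Gamma replicates 1 to 3 stand at the upper right, and silicon replicate 3 stands at the far left with Msln at 116 CPM and Upk3b at 0.528 CPM.

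The mean of the mesothelial genes was compared with 13708 other genes of mean log2 CPM of at least 0, with no upper limit on level. The 8 whose log2 CPM followed it most closely over the 37 libraries were Tmem151a (r = 0.951), Cldn15 (0.940), Pkhd1l1 (0.916), C2 (0.893), Nkain4 (0.888), Lgals2 (0.888), Rspo1 (0.880) and Sfrp2 (0.857). Cldn15 is a claudin of tight junctions, C2 a complement component, Lgals2 a galectin, Rspo1 an enhancer of Wnt signalling and Sfrp2 a secreted Wnt modulator. After the group means were removed, r was 0.923 for Tmem151a and 0.704 for Sfrp2, and without gamma replicates 1 and 3 it ran from 0.833 to 0.934 over the 8. The 37 libraries differ in depth and tissue makeup, which any pair of genes has in common, so these correlations are descriptions. Tmem151a averaged 24.8 ± 17.6 CPM in gamma (SD, n = 5) and 6.87 ± 3.27 CPM in mock (SD, n = 7), and Cldn15 33.4 ± 21.7 CPM in gamma and 11.5 ± 5.31 CPM in mock.

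**Figure D4:**
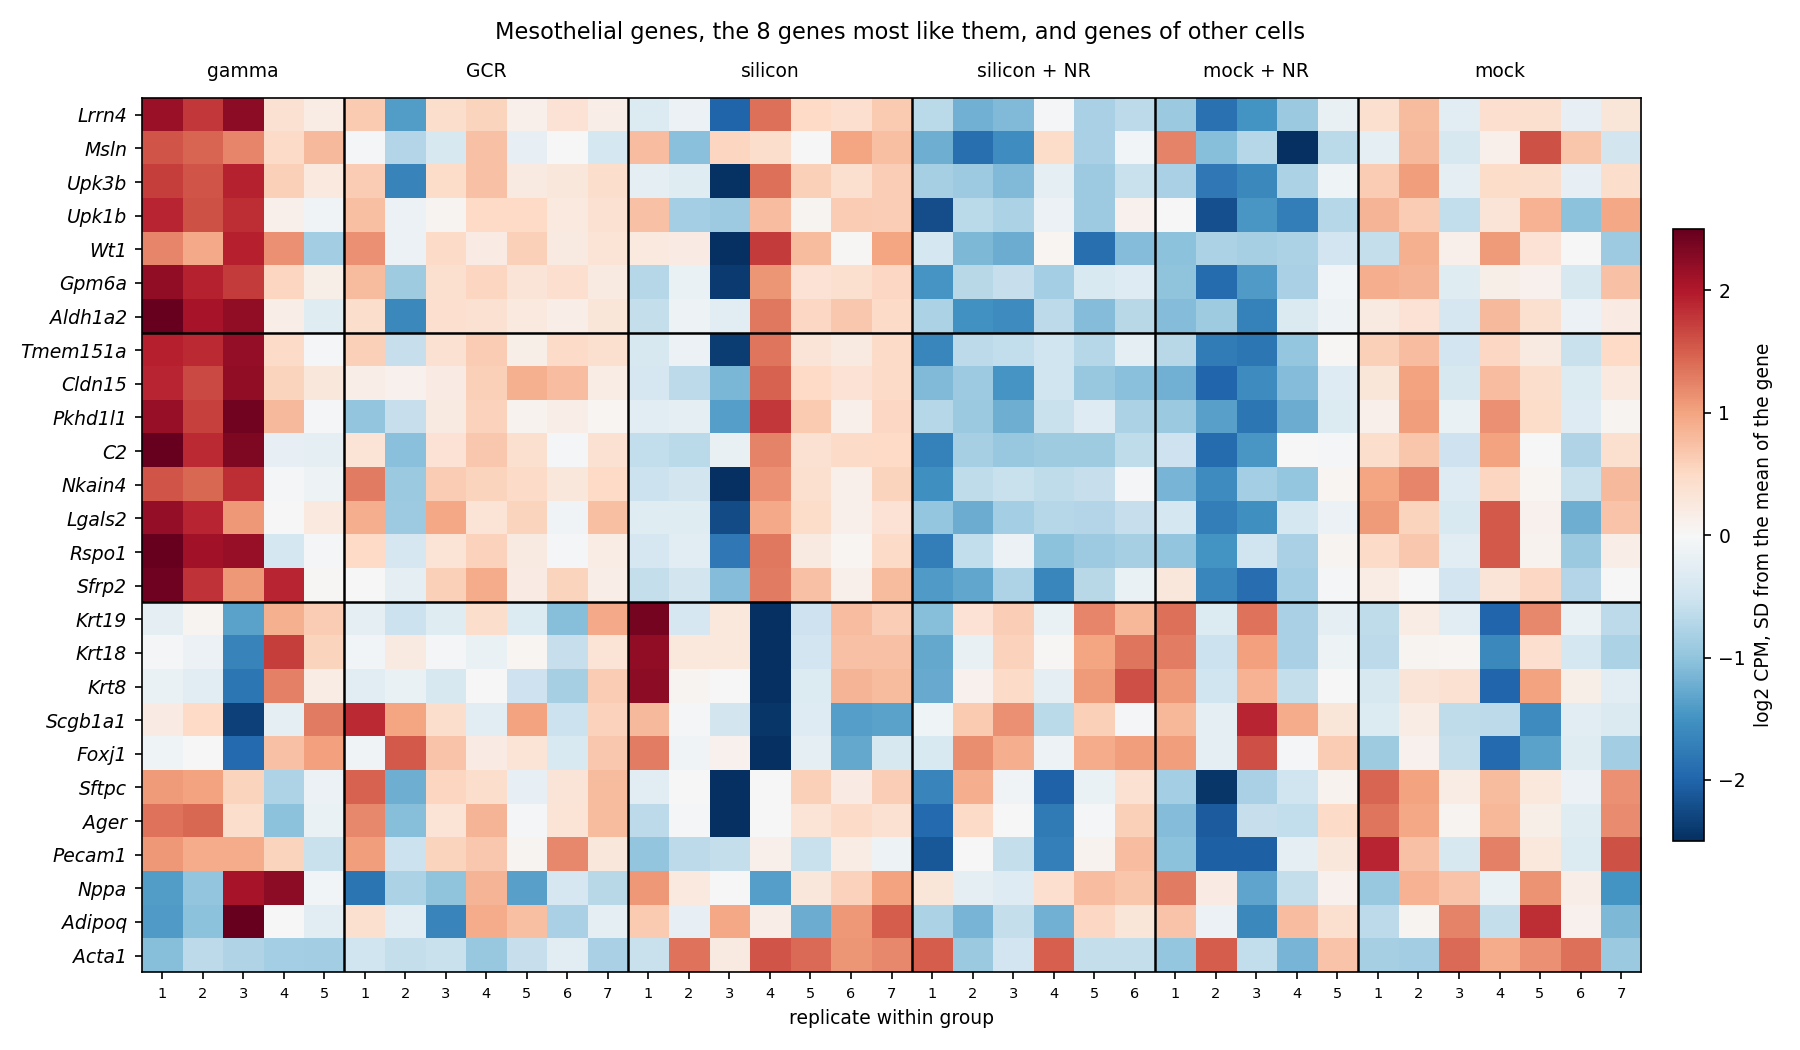
Log2 CPM of the 7 mesothelial genes, the 8 genes most like them and 11 genes of other cells (rows, in SD from the mean of each gene) in 37 libraries (columns, by group). The upper 15 rows share high values in gamma replicates 1 to 3 and mostly low values in the NR groups, while the keratins drawn, Krt19, Krt18 and Krt8, had r from -0.26 to -0.24 with the mesothelial mean and Krt7, not drawn, 0.43.

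A second list held 17 further genes reported in mesothelium, of which 16 were tested. In gamma against mock 12 were higher and 4 lower with 0 called (median 0.63), the 2 of smallest p being Cldn15 (1.501, SE 0.43, adjusted p = 0.244 by edgeR) and the complement gene C3 (0.83, SE 0.26, adjusted p = 0.244). The transcription factor gene Bnc1 stood at 14.8, 12.5, 16.3, 1.75 and 2.08 CPM in gamma lungs, against 1.59 to 4.30 CPM in mock, with the same 3 libraries high. In GCR against gamma 13 of 16 were lower and 2 were called lower, against 3.04% of all genes, Cldn15 (-1.57, adjusted p = 0.0434 by edgeR) and the anion exchanger gene Slc26a3 (-3.01, adjusted p = 0.0423). In NR against no NR 12 of 16 were lower and only Cldn15 was called lower, against 0.200% of all genes (-1.75, adjusted p = 0.0395 by edgeR). The list followed the mesothelial mean with r = 0.89, its single genes with r from -0.33 (Hp) to 0.94 (Cldn15). The keratins Krt19, Krt18 and Krt8, which other lung epithelia also make, had r from -0.26 to -0.24, while Krt7 of the same list had r = 0.43.

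Relatives of the 7 genes were set beside them. The other uroplakins, Upk1a, Upk2, Upk3a and Upk3bl, summed to 2.28 to 20.7 CPM in gamma lungs, against 3.29 to 13.6 CPM in mock. In gamma against mock 0 of 4 were called (median 0.21), with Upk1a at 0.75 and Upk3bl at -2.64 (adjusted p = 0.647 and 0.482 by edgeR), and the list had r = -0.50 with the mesothelial mean. Of 18 other genes of retinoic acid supply, breakdown and reception 16 were tested, 8 higher and 8 lower with 0 called in gamma against mock (median 0.00). The 2 of smallest p were the binding protein gene Crabp2 (-2.71, adjusted p = 0.461 by edgeR) and the receptor gene Rarg (-0.32, adjusted p = 0.655). Aldh1a1, which makes retinoic acid as Aldh1a2 does, stood at 1536, 1360, 825, 1458 and 1839 CPM in gamma lungs, a log2 fold change of -0.16 (SE 0.29, adjusted p = 0.901 by edgeR), and Rarb, a receptor gene that retinoic acid induces, stood at 0.35 (SE 0.23, adjusted p = 0.662).

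Lists of other cells and tissues had 0 called genes in gamma against mock. Heart genes were higher in 10 of 10 (median 1.82, Nppa 3.48, Ryr2 1.81, Myh6 2.52) and fat cell genes in 10 of 10 (median 1.13, Adipoq 1.30, Retn 2.13, Cidec 1.77). Skeletal muscle genes were lower in 12 of 12 (median -8.13, Acta1 -9.80, Tnni2 -8.22, Tnnt3 -7.68) and squamous genes in 8 of 8 (median -6.49, Krt13 -8.24, Krt4 -7.47). The medians were -0.14 for lymphoid genes (Cd3e -0.28, Ccr7 0.43), -0.13 for fibroblast (Dcn 0.48, Tcf21 -0.73), -0.82 for smooth muscle (Actg2 -1.15, Des -2.09) and -0.39 for endothelial genes (Tmem100 -0.98, Ramp2 -0.87). They were -0.03 for alveolar type 1 (Rtkn2 -0.32, Clic5 -0.33), -0.07 for alveolar type 2 (Sftpc -0.41, Abca3 0.34), 0.29 for club (Scgb1a1 0.68, Scgb3a2 0.50), 0.57 for ciliated (Foxj1 0.77, Cfap126 0.68) and -0.55 for macrophage genes (Marco -1.24, Siglecf -0.85). Over the 37 libraries the mesothelial mean had r of 0.01 with the heart, -0.07 with the skeletal muscle and 0.18 with the fat cell list, and of 0.61 with the endothelial, 0.57 with the fibroblast, 0.56 with the alveolar type 1, -0.55 with the club and -0.60 with the ciliated list.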

How the data were processed

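Lung RNA of 37 mice, 1 library per mouse, was made into cDNA with the SMART-seq v4 kit and into libraries with Nextera XT, per the labels' protocols, so strand is not marked. FastQC 0.11.4, MultiQC 1.12, Trimmomatic 0.36, STAR 2.5.2, HTSeq 0.13.5 and the build mm10 are named, per the submitters' processing notes. The authors deposited raw counts per gene symbol, which were used as deposited, and CPM was computed over library totals. Group and sex came from the labels. A replicate number follows the accession order and serves as a name alone.

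Genes were tested with edgeR 4.0.16 (R 4.3.3, quasi-likelihood test, TMM scaling, filterByExpr, which left 16977 genes) in 1 fit of all libraries by group and labelled sex. P-values were adjusted by Benjamini-Hochberg over all these genes, and a gene was called at an adjusted p under 0.05. Comparisons within sexes used group-by-sex means. DESeq2 1.42.0 and limma 3.58.1 (voom with sample quality weights) were alternatives, beside other size factors, no filter, no sex term, fits of only the groups compared, each library left out and 4 sets of libraries left out. The 4 sets and the comparisons within sexes and over both NR pairs were chosen after seeing the data. The fitting scripts were tested on simulated data. Likeness used log2 CPM (TMM, prior count 2). Counts cover reads and not molecules, since no molecular identifiers were used, and depth limits single libraries most for Wt1.

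The 8 genes and all lists were chosen with earlier results of these data known. All 8 were to be named, with the 8 genes most like them (mean log2 CPM of at least 0, no predicted genes) and, of each list, the 2 of smallest p in gamma against mock and the first of each tissue list. Bnc1, Slc26a3, Rsph1, Aldh1a1, Rarb and the keratins were named after their values were seen. Gene positions are from GENCODE M21, and promoter windows from the RefSeq table.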

Additional observations from a re-analysis of the deposited data

Results flagged for a closer look

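In groups of 4 to 10 libraries, 42 combinations of gene and group were examined for a lowest or highest library far from the others on the log2 CPM scale. Of these, 5 were found, where chance gives about 1 in 20 for a single combination. The genes vary together, so the combinations are not independent and no excess over chance is read from the 5. GCR replicate 2 was the lowest library of its group for 4 genes. Its gap to the next library took 0.739 of the range of the group for Lrrn4 (0.746 CPM), 0.786 for Upk3b (1.09 CPM), 0.659 for Gpm6a (13.02 CPM) and 0.868 for Aldh1a2 (3.04 CPM), against a critical value of 0.568 for 7 libraries. That library had 216500 CPM of Rn45s, whose part in these levels was not tested. Silicon replicate 3 was the lowest for Wt1 at 0.176 CPM, with a gap of 0.606 of the range, and had 447 CPM of Ccl19, whose part in it was not tested.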

How the results depend on the processing

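No paired analysis was possible because the labels carry no replicate numbers that could pair mice across groups. Counts below are of the 7 mesothelial genes called by the test named. With DESeq2 2 genes were called in gamma against mock, 4 in silicon against gamma, 4 in mock + NR against mock, 2 in silicon + NR against silicon and 3 in gamma against mock among males, where it called 1.36%, 6.40%, 3.55%, 1.96% and 0.731% of all genes. With limma voom these counts were 4, 6, 1, 5 and 5, where it called 1.40%, 30.8%, 5.85%, 24.8% and 2.40% of all genes, and 5 in GCR against gamma, where it called 1.13%. By edgeR, GCR against gamma had 0 called in a fit of only the groups compared, without muscle-rich, without high-Rn45s (0% of all genes in each) and without heart-rich libraries (0.0232%). NR against no NR had 0 without muscle-rich, 0 without lymphoid-rich (0% of all genes in both) and 3 without high-Rn45s libraries (0.603%). Gamma against mock among males had 0 without muscle-rich and 0 without heart-rich libraries (0% in both). Without muscle-rich libraries silicon against gamma had 2 (1.69% of all genes), and mock + NR against mock (2.48%), silicon against mock (4.23%), the same among males (1.39%) and the silicon response with NR minus without (7.79%) had 1 each, and silicon against mock among females, alone or minus males, could not be fitted.

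The sign changed without muscle-rich libraries for Lrrn4 (0.20), Upk3b (0.03) and Gpm6a (1.24) in silicon + NR against silicon, where 2 of 7 silicon libraries remain, and without heart-rich libraries for Wt1 in silicon against gamma (0.08). The cause was not tested. With 1 library left out, counts ran from 0 to 1 in gamma against mock (0.00590% to 0.105% of all genes called) and mock + NR against mock (0% to 1.56%). So they did in silicon + NR against silicon (0% to 1.98%) and in gamma against mock among males (0% to 0.00590%). They ran from 0 to 5 in GCR against gamma (0% to 15.4%) and from 0 to 3 in silicon against gamma (0.00589% to 2.23%). In NR against no NR they ran from 0 to 6 (0% to 7.59%), and in the other comparisons from 0 to 0. Of these others, GCR against mock had 2.95% to 24.1% of all genes called, silicon against mock 0% to 1.81%, and its males 0% to 0.142%. The silicon response with NR minus without had 0% to 0.890%, and female against male 0.0584% to 0.0643%. Gamma against mock among females, and males minus females, had 0% to 0.0293%. Silicon + NR against mock + NR, and silicon against mock among females or females minus males, had 0%. With no count filter, Upk1b (-1.14, adjusted p = 0.0508 by edgeR) and Gpm6a (-1.31, adjusted p = 0.0523) were no longer called in NR against no NR, and with no sex term Gpm6a (-1.53, adjusted p = 0.0525) was not in GCR against gamma. Other size factors (RLE) left all 60 named values the same. These are single genes, whose calls did not change, and medians of the 7 genes, which carry no call. Of 42 group levels, 3 moved by more than 1 SD when Rn45s and Scgb1a1 were left out of the totals.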

Other observations

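The part of Msln that the other 6 genes did not follow was also set against all other genes, by a rule chosen after the values were seen. The residual of its log2 CPM on their mean was most like Inhba (r = 0.661, n = 37 libraries), which encodes an activin subunit, followed by Ern2 (0.644), Akr1c18 (0.640), Cldn22 (0.637), Ltf (0.619) and Fcgbp (0.605). Ltf encodes lactoferrin and Fcgbp a protein of mucus. These 6 genes had r from -0.28 to -0.11 with the mean of the mesothelial genes themselves.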
